A study of Mus musculus with 6 samples.

Results

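The cells described here were lymph node cells of the CD169 lineage that held RNA of Cd209a and Ccr2 but no Flt3 RNA, and were labelled as Cd209a monocyte-derived dendritic cells without Flt3. They were chosen on raw unique molecular identifiers (UMIs, each a captured RNA molecule) in the same RNA counts that are described below. A cell was taken with at least 1 Cd209a UMI, at least 1 Ccr2 UMI, 0 Flt3 UMIs, at most 4 UMIs of C1qa, C1qb and C1qc together, no UMI of Xcr1, Ccr7, Cd3e, Cd79a or Nos2, and fewer than 4 of Ifit1, Ifit2, Ifit3 and Rsad2 detected. Of 12139 cells kept, 83 met these criteria, and they are called Cd209a+Flt3- cells (gate cells in the plots). Values of the 15 genes used for the choice are given as description, and other genes that go with these 15 in single cells differ as well.

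The study was about tingible body macrophages, which clear dying cells in germinal centres, and this experiment profiled lymph node cells of the CD169 lineage. All 4 mice were Cd169Cre/+.Tdtomatofl/fl on a C57BL/6J background and older than 6 weeks, with the sex of these 4 not given, so that the red protein Tomato (TOM) marks any cell that ever switched on the Siglec1 locus, and its progeny. 2 mice were unimmunized and 2 were immunized with hen egg lysozyme, with inguinal lymph nodes taken on day 9. Per the methods, hen egg lysozyme was conjugated to an ovalbumin peptide and given under the skin in adjuvant. That passage concerns mice given antigen-specific B and T cells a day earlier, and whether these 4 mice received such cells was not stated. CD11b and TOM positive cells were sorted, 1 hashtag antibody marked each mouse, and the pooled cells were split over 2 droplet captures with 6 surface antibodies counted by their DNA tags (CITE-seq). The 83 cells were 36 and 2 cells of unimmunized mice 1 and 2, and 33 and 12 cells of immunized mice 1 and 2, with 395373, 22638, 384308 and 169739 UMIs in all. The library of unimmunized mouse 2 thus stood apart from the rest. A single UMI in it is worth 44.2 CPM (a gene's UMIs per 1000000 UMIs of the library) against 2.5, 2.6 and 5.9 CPM in the others. Counts of calls between populations are given with and without this library. Single values are given with it unless stated. The median depth per cell was 10718, 11319, 11668 and 13681 UMIs, and 45 cells came from capture 1 and 38 from capture 2.

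Monocytes leave the blood through the chemokine receptor CCR2 and can become macrophages or take on features of dendritic cells, the cells that show antigen to T cells on MHC class II molecules. Cd209a encodes a C-type lectin of the DC-SIGN family that is found on monocyte-derived dendritic cells and also on conventional type 2 dendritic cells. FLT3, the receptor of the growth factor FLT3L, is needed by the conventional lineage, and monocyte-derived cells depend on CSF1R instead. Ciita is the master switch of MHC class II transcription, and Clec10a encodes a lectin that binds galactose-type sugars.

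The tags that placed each cell in a mouse and that read out its surface are shown because every comparison below rests on them. Each is 15 bases long, printed 5′ to 3′ with the whole tag in capitals.
Hashtag 1, unimmunized mouse 1: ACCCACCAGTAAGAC
Hashtag 2, unimmunized mouse 2: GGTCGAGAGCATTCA
Hashtag 3, immunized mouse 1: CTTGCCGCATGTCAT
Hashtag 4, immunized mouse 2: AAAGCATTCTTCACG
CD11c antibody: GTTATGGACGCTTGC
Ly-6c antibody: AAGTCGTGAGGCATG
CD169 antibody: ATTGACGACAGTCAT
The median hashtag count in Cd209a+Flt3- cells was 1048, 1410, 449 and 714 for hashtags 1 to 4. These counts lie far above the minimum of 10 set for a cell.

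Cd209a+Flt3- cells were rare in every mouse. They made up 1.27% (95% exact Clopper-Pearson interval 0.893 to 1.76) and 0.372% (0.0451 to 1.34) of the kept cells of unimmunized mice 1 and 2, and 0.814% (0.561 to 1.14) and 0.254% (0.131 to 0.444) of those of immunized mice 1 and 2. The intervals cover counting error alone. Both conditions held a high and a low mouse, and the groups overlapped. The mean share was 0.534% ± 0.396 (SD, n = 2) in immunized and 0.823% ± 0.637 (SD, n = 2) in unimmunized mice, and a two-sided exact permutation test gave p = 0.667, where 2 mice against 2 can give no p under 0.333. Of cells with a Csf1r UMI, the shares were 2.87%, 0.741%, 0.95% and 0.259% in the same order, with the same p of 0.667 by the exact permutation test.

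The markers of the label were read first. 72 of the 83 cells also had a Csf1r UMI. Clec10a was detected in 60 cells (72.3%) and Ciita in 70 cells (84.3%), against 2.85% and 19.1% of 1158 lymphoid reference cells (no Csf1r UMI and at least 2 UMIs of Cd3e and Cd79a together), whose median depth was 6053 UMIs against 11668 UMIs. With every cell thinned to 3000 UMIs, which left out 3 of the 83 cells, Clec10a was seen in 38.8% and Ciita in 57.5%, against 1.49% and 10.97% of reference cells. Ccr2 separates the cells less, since 59.5% of the lymphoid reference cells had a Ccr2 UMI. Of the 8405 other cells with a Csf1r UMI, 78.6% had Ciita and 32.1% had Clec10a (48.3% and 14.4% when thinned). Ciita thus separated the cells little from these. Of the 106 cells that met the other criteria but had a Flt3 UMI, 94.3% had Ciita and 74.5% had Clec10a. The defining macrophage gene Mertk, a receptor for dying cells, had 0 UMIs in all 83 cells. Fcgr1 (the high-affinity IgG receptor CD64) was detected in 21 cells, and Zbtb46, a transcription factor of the conventional dendritic lineage, also in 21. Both Fcgr1 and Zbtb46 were seen in 4 cells, and both Ly6c2 and Zbtb46 in 5, with detection of each sparse. Descent from monocytes was not measured, so the name used here is that of the rule.

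The Flt3 criterion depended on how deeply a cell was read. Among the 189 cells that met all other criteria, 14 of the 17 cells below 8000 UMIs had no Flt3 UMI (82.4%), against 31 of 75 cells (41.3%) from 8000 to 12000 UMIs, 27 of 68 (39.7%) from 12000 to 16000 and 11 of 29 (37.9%) above. Flt3 RNA is sparse where it is present, with a median of 2 UMIs in the 106 cells that had any, and 60 of these 106 cells lost their Flt3 UMIs when thinned to 3000. A cell without a Flt3 UMI is therefore not shown to lack Flt3. Above 8000 UMIs the share changed little from bin to bin.

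**Figure D1:**
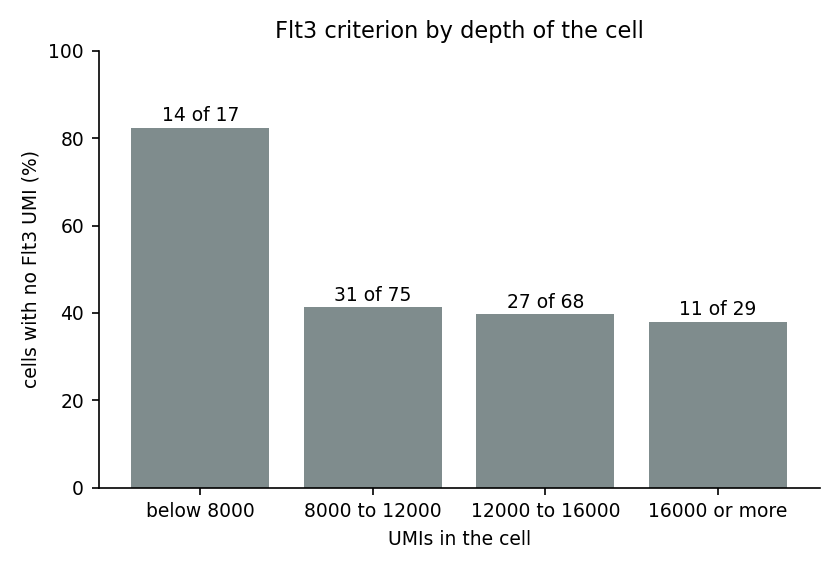
Share of cells without a Flt3 UMI (vertical axis, %) among the 189 cells meeting all other criteria, by UMIs in the cell (horizontal axis), with the cell numbers above the bars. The share falls from 82.4% below 8000 UMIs to between 37.9% and 41.3% in the deeper bins.

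The cells just inside and outside the criteria were as follows. Cd209a had a median of 3 UMIs and at most 32 in a cell, and 25 cells had a single Cd209a UMI. Those 25 cells pooled had 139 CPM of Clec10a, 222 CPM of Mgl2, 478 CPM of Ly6c2 and 7.5 CPM of Zbtb46, while the 35 cells with 5 or more Cd209a UMIs had 306, 565, 114 and 42.4 CPM. Lyz2, the lysozyme gene of monocytes and macrophages, was at 18460 CPM in the former and 9740 CPM in the latter. The C1q limit was hardly touched, with 1 cell at a sum of 3 to 4 inside it, 1 cell at 5 to 9 outside it and 18 cells at 10 or more.

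Against the 8405 other cells with a Csf1r UMI, 4 lectin genes (Mgl2, Clec10a, Clec4b1 and Mrc1) and the alternative activation genes Ear2 and Mmp12 were higher in Cd209a+Flt3- cells, and 4 chemokine genes and 4 macrophage genes were lower. None of these 6 rises passed the test without the 2-cell library. UMIs were summed per mouse and population and tested with edgeR's quasi-likelihood test and Benjamini-Hochberg adjustment over all 8834 genes tested. This called 58 genes (0.657%), 25 higher (0.283%) and 33 lower (0.374%). The median log2 fold change over all tested genes was -0.08.

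Of 16 tested genes of C-type lectins and Fc receptors, 4 were higher and 1 was lower, and 5 had a fitted fold change above 0 (list median -0.25). Mgl2, a galactose-binding lectin and close paralog of Clec10a, was at 306 and 574 CPM in unimmunized mice 1 and 2 and at 370 and 648 CPM in immunized mice 1 and 2, against 66.5, 33.8, 60.2 and 125 CPM in the other Csf1r+ cells of the same mice. Every mouse had more Mgl2 in Cd209a+Flt3- cells, and the 2 sets of libraries did not overlap (log2 fold change 2.59 ± 0.30 SE, adjusted p = 0.0018, edgeR). Clec10a was at 276, 177, 297 and 118 CPM against 78.5, 47.8, 118 and 63.8 CPM (1.66 ± 0.30, adjusted p = 0.0293, edgeR). The genes lie next to each other on GRCm38, Mgl2 at chr11:70130329-70137550 and Clec10a at chr11:70156197-70170834, both on the plus strand, and reads of near-identical stretches may have been split between them. Clec4b1, a lectin of the Clec4 cluster, was at 309, 88.3, 216 and 130 CPM against 52.9, 60.5, 64.8 and 13.8 CPM (2.25 ± 0.44, adjusted p = 0.0419, edgeR). Mrc1, the mannose receptor, had a log2 fold change of 2.22 ± 0.28. Clec4e, which encodes the receptor Mincle, was lower by 1.95 on the log2 scale. Without the 2-cell library all 5 lost their call, with log2 fold changes of 2.51 for Mgl2 and 1.72 for Clec10a (adjusted p = 0.102 and 0.211, edgeR), 2.35 for Clec4b1, 2.17 for Mrc1 and -1.92 for Clec4e.

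Of 8 tested genes of alternative activation, 4 were higher and none was lower. Only these 4 had a fitted fold change above 0 (list median 0.92). Besides Mgl2 and Mrc1 these were Ear2, a secreted ribonuclease, and Mmp12, the macrophage elastase. Ear2 was at 410, 1149, 154 and 318 CPM against 142, 92.5, 57.2 and 10.0 CPM (2.48 ± 0.47, adjusted p = 0.0385, edgeR), and is uncertain as a member of a family of near-identical copies. Mmp12 was at 187, 530, 41.6 and 29.5 CPM against 25.7, 31.6, 5.4 and 13.2 CPM (2.53 ± 0.38, adjusted p = 0.0098, edgeR). All Ear2 and all Mmp12 UMIs of unimmunized mouse 2 lay in 1 of its 2 cells, 26 and 12 UMIs, and without this library the log2 fold changes were 2.28 and 2.38 (adjusted p = 0.259 and 0.173, edgeR). Retnla, a secreted product of alternatively activated cells, was found in 2 cells, both of unimmunized mouse 1, 1 of them holding 249 of the 266 UMIs.

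The remaining genes named for the size of their rise, among calls whose average log2 CPM reached 5, were the chemokine Ccl9 (420, 574, 247 and 283 CPM against 110, 103, 99.1 and 65.6 CPM), the secreted glycoprotein gene Olfm1 (172, 265, 143 and 100 CPM against 42.4, 30.3, 48.7 and 54.7 CPM), the adhesion molecule gene Alcam, the MHC class I-like gene H2-M2 and the trafficking gene Rin3. Ccl9 and Olfm1 were separated in all mice (1.86 ± 0.19 and 1.81 ± 0.19, each adjusted p = 0.0014, edgeR). H2-M2, a non-classical MHC gene at chr17:37480851-37483552 on the minus strand of GRCm38, was at 109, 398, 138 and 183 CPM against 57.8, 47.8, 48.8 and 68.6 CPM (1.41 ± 0.24, adjusted p = 0.0176, edgeR). Without the 2-cell library Ccl9 and Olfm1 kept their call and H2-M2, Alcam and Rin3 lost it (1.24, 1.65 and 1.38 on the log2 scale). Alcam was at 106, 0, 96.3 and 29.5 CPM against 35.2, 29.4, 28.2 and 20.3 CPM (adjusted p = 0.0498, edgeR).

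Of 15 tested chemokines, 2 were higher (Ccl6 and Ccl9) and 4 were lower, and 3 had a fitted fold change above 0 (list median -2.22). The interferon-induced T cell attractant Cxcl9 was at 48.1, 0, 172 and 424 CPM against 266, 294, 733 and 1661 CPM (-2.35 ± 0.39, adjusted p = 0.0172, edgeR). Its relative Cxcl10 was at 73.3, 0, 33.8 and 29.5 CPM against 115, 158, 321 and 435 CPM (-2.27 ± 0.30, adjusted p = 0.0053, edgeR). Both were lower in every mouse, and without the 2-cell library Cxcl10 kept its call and Cxcl9 did not (-2.30, adjusted p = 0.196, edgeR). Over the 28 interferon-gamma induced genes tested, these were the 2 that passed the test, and the median of the list was -1.14 against -0.08 for all genes.

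Of 14 macrophage genes, Fcgr1, Maf, Apoe and Aif1 were lower and Mrc1 was higher (list median -1.20), and Apoe, the lipid carrier, was at 228, 44.2, 276 and 159 CPM against 1126, 956, 1064 and 417 CPM. The C1q genes were limited by the rule and entered no count. None of 16 classical monocyte genes passed the test (median -0.95), and Lyz2 was at 11627, 14931, 13513 and 16938 CPM against 12716, 15827, 22518 and 23424 CPM. Of the 14 genes of nonclassical monocytes tested, Ear2 was higher and Cebpb, a transcription factor needed by monocytes, was lower. Irf8, a transcription factor of monocyte and dendritic cell progenitors, was lower by 1.17 on the log2 scale, the single call among 16 conventional dendritic cell genes, of which 10 had a fitted fold change above 0 (median 0.34). Itgax, which encodes CD11c, was higher (1.00 ± 0.20, adjusted p = 0.042, edgeR), as 1 of 5 calls among 20 type 2 dendritic cell genes with Clec10a, Mgl2, Ear2 and Olfm1. Of these 20 genes, 11 had a fitted fold change above 0 (list median 0.43). Without the 2-cell library the calls of Fcgr1, Maf, Apoe, Aif1, Cebpb, Irf8 and Itgax were lost, with the sign kept.

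**Figure D2:**
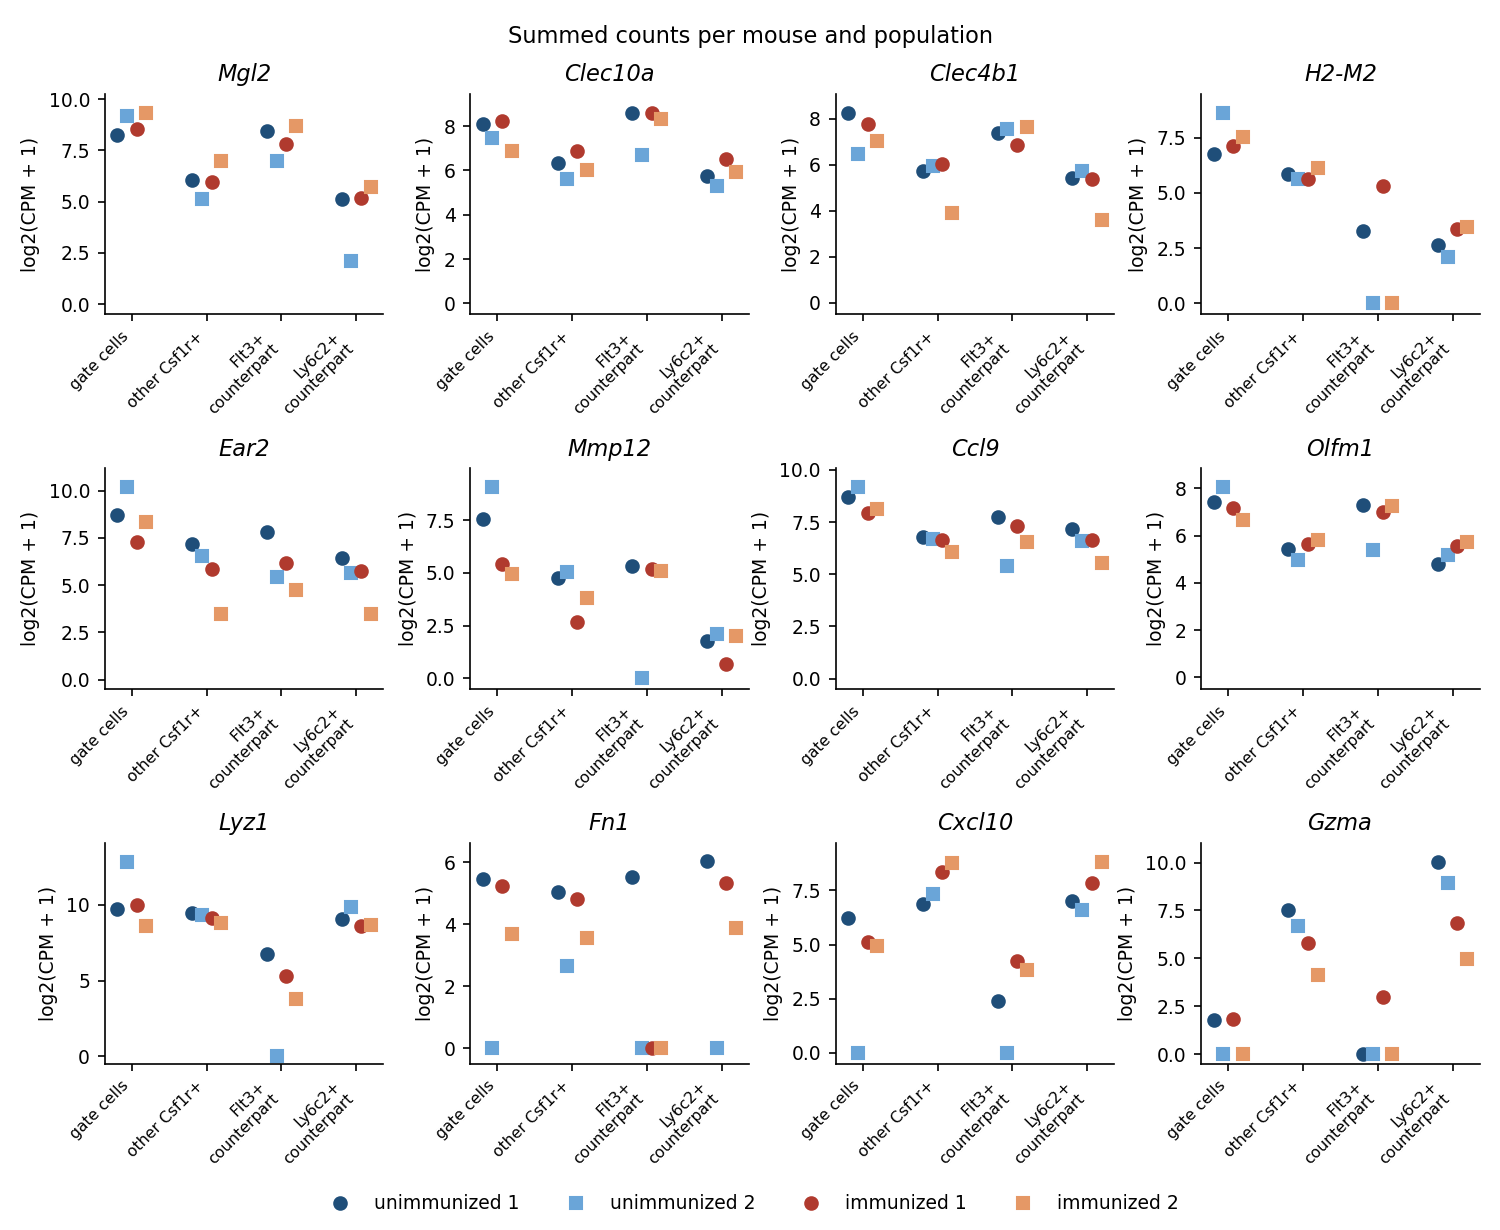
Level of 12 genes, log2(CPM + 1) of UMIs summed per mouse, in Cd209a+Flt3- cells (gate cells), other Csf1r+ cells and the Flt3+ and Ly6c2+ counterparts, 1 point per mouse. Mgl2 and Olfm1 lie above the other Csf1r+ cells in all 4 mice, Cxcl10 and Gzma below, and Lyz1 lies above the Flt3+ counterparts.

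Of 7 tested NK cell genes, Gzma and Ccl5 were lower in Cd209a+Flt3- cells, and of 8 tested migratory dendritic cell genes, Apol7c was lower. Gzma, a granule protease of cytotoxic cells, had 2 UMIs in all against 4589 in the other Csf1r+ cells, a pooled ratio of 22.1 (95% exact counting interval 6.1 to 182). Apol7c, of the migratory dendritic cell list, had 3 UMIs, with the other cells 33.3 times as high (11.4 to 162). Ccl5, a chemokine on the NK cell list, was at 37.9, 0, 247 and 407 CPM against 776, 946, 480 and 1832 CPM, and 1 cell, of immunized mouse 1, held 75 of its 179 UMIs. The summed CPM of the 10 NK cell genes was 207, 0, 604 and 513 in Cd209a+Flt3- cells and 1384, 1391, 672 and 1979 in the other Csf1r+ cells, with Ccl5 the most abundant. The other Csf1r+ cells held lymphoid RNA, with 1502 UMIs of Cd3d and 706 of Ncr1, and its part in the result was not tested. Their summed T cell genes were at 1308.5, 563, 141 and 39.2 CPM, lowest in immunized mouse 2, where Ccl5 was highest. The source of Ccl5 was not tested. Of defining genes, Cd3g, Trac, Ms4a1 and Retnlg were at 0 in Cd209a+Flt3- cells, with 17 UMIs of Cd79b. Csf3r had 33 UMIs, S100a9 5, S100a8 4, Klrb1c 3, Ncr1 2 and Cd3d 1.

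The count of calls depended on the smallest library. Leaving out the 2-cell library, a choice made after the data were seen, kept 9 calls, all among the 58 and with Ccl9, Olfm1, Ccl6, Cd63, Cfb and Cxcl10 among them. The other calls were lost, those of the named lectins, of Ear2, Mmp12, H2-M2, Cxcl9, Ccl5, Gzma and Apol7c included, while all 58 genes kept their sign. Leaving out unimmunized mouse 1 or unimmunized mouse 2 altogether ended all calls, and 55 and 58 of the 58 genes kept their sign. Without unimmunized mouse 1 the median log2 fold change over all tested genes was -3.98, so that the kept sign of a fall says little there. With the mouse as a block, which pairs the 2 populations of each animal, 317 genes were called (93 higher, 224 lower), the 58 among them. In capture 1 alone 48 genes and in capture 2 alone 23 genes were called.

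MHC class II genes were high and even between mice in Cd209a+Flt3- cells. H2-Aa, H2-Ab1, H2-Eb1 and Cd74 together took a median of 6.18%, 5.52%, 6.24% and 5.13% of the UMIs of a cell in the 4 mice, in the order unimmunized 1 and 2 and immunized 1 and 2. In the other Csf1r+ cells the medians were 1.64%, 3.70%, 4.99% and 5.42%. Cd209a+Flt3- cells were therefore above the other cells in 3 mice and below them in immunized mouse 2. Of 14 presentation genes tested, 1 was higher, H2-DMb2, a subunit of the peptide loading factor H2-DM, at 93.6, 265, 115 and 171 CPM against 56.0, 64.0, 58.7 and 38.2 CPM (1.21 ± 0.24, adjusted p = 0.043, edgeR, and 1.09 without the 2-cell library, adjusted p = 0.22). Ciita was at 253, 0, 370 and 289 CPM against 201, 206, 273 and 272 CPM and did not pass the test (adjusted p = 0.854, edgeR).

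**Figure D3:**
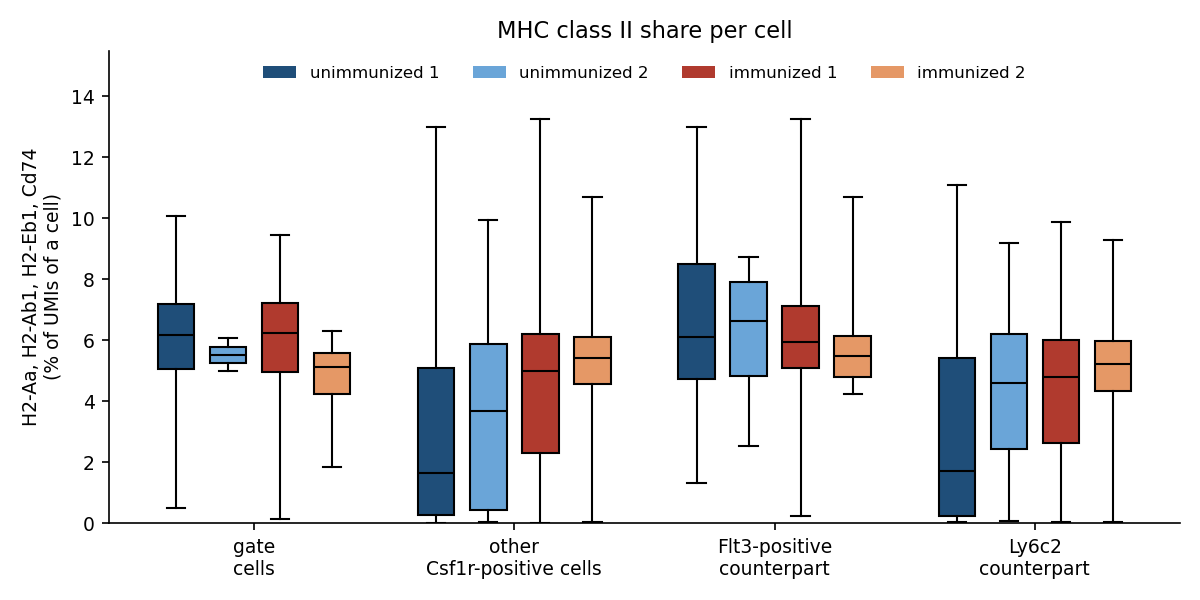
Share of a cell's UMIs taken by H2-Aa, H2-Ab1, H2-Eb1 and Cd74 (vertical axis, %) by population and mouse. Boxes give quartiles and median, whiskers the lowest and highest cell. The medians of gate cells lie between 5.13% and 6.24% in the 4 mice, those of other Csf1r+ cells between 1.64% and 5.42%.

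The lineage label and its driver were sparse. Tomato RNA had 6 UMIs in 6 of the 83 cells, 3 in each of unimmunized mouse 1 and immunized mouse 1, at 7.6, 0, 7.8 and 0 CPM against 4.2, 2.2, 5.2 and 6.2 CPM in other Csf1r+ cells. Siglec1, the gene of CD169, had 7 UMIs in 7 cells and was at 5.1, 0, 7.8 and 11.8 CPM against 17.5, 14.5, 14.8 and 28.3 CPM. Neither passed the test (adjusted p = 0.853 and 0.298, edgeR).

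The antibody counts were not used by the rule and gave a separate view. Each count was turned into a centred log ratio, the natural log of a count plus 1 minus the mean over the 6 antibodies of the cell. CD11c was higher on Cd209a+Flt3- cells in 4 of 4 mice, at 1.64, 2.38, 1.52 and 1.47 against 0.442, 0.709, 0.600 and 1.02 on other Csf1r+ cells (mean difference 1.06 ± 0.51 SD, n = 4). CD169 was lower in 4 of 4 mice, by 0.54 ± 0.42 (SD, n = 4) on average, and Ly-6c was lower in 4 of 4 mice, by 0.45 ± 0.29 (SD, n = 4). On the other scale tried, the log2 of the mean count plus 1, CD169 was higher in 1 of the 4 mice, while CD11c was higher and Ly-6c lower in all 4. For the centred log ratio a two-sided exact sign-flip test gave p = 0.125 for each of the 3, the smallest that 4 mice allow, and 0.25 after adjustment over 6 antibodies. The F4/80, CD68 and Ly-6g signals differed in direction between mice.

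**Figure D4:**
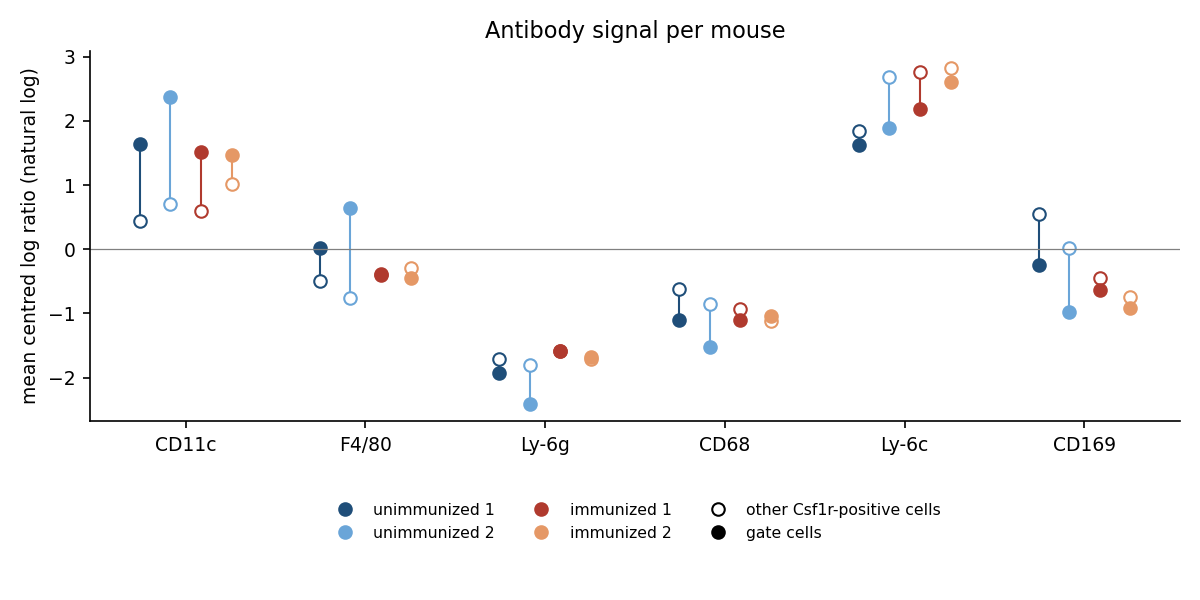
Mean centred log ratio of 6 surface antibodies (vertical axis, natural log) per mouse in gate cells (filled) and other Csf1r+ cells (open), joined within a mouse. CD11c is higher and CD169 and Ly-6c are lower on gate cells in all 4 mice.

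The nearest population was the 106 cells that met the same criteria but had a Flt3 UMI, here called Flt3+ counterparts (37, 4, 55 and 10 cells per mouse). With a Csf1r UMI in 80 of the 106, and in 2666 of the 2788 Ly6c2+ counterparts below, these populations overlap the other Csf1r+ cells. In Cd209a+Flt3- cells 4 of 12 classical and 4 of 9 nonclassical monocyte genes were higher, and 3 of 15 conventional and 2 of 3 plasmacytoid dendritic cell genes were lower. Of 16 type 2 dendritic cell genes, 2 were higher (Fcer1g and Ear2) and 3 were lower (Cd209d, Kmo and Cd7). Olfm1, a rise against the other Csf1r+ cells, was detected in 77 of the 106 counterparts and 56 of the 83 Cd209a+Flt3- cells. Of 4655 genes tested, 129 were called (2.77%), 78 higher (1.68%) and 51 lower (1.1%), and the median log2 fold change was -0.03. By antibody, CD11c was 0.33 ± 0.53 (SD, n = 4) lower than on the counterparts, and higher in 1 of 4 mice. Ly-6c was higher in 3 of 4 mice (0.47 ± 0.49) and F4/80 in 4 of 4 (0.61 ± 0.62). CD169 and CD68 were lower in 4 of 4 mice, and Ly-6g was higher in 2 of 4. No adjusted p of the exact sign-flip test was under 0.25.

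Of 12 classical monocyte genes, 4 were higher and none was lower (median 0.71). Lyz2 was at 11627, 14931, 13513 and 16938 CPM against 4000, 873, 6806 and 4681 CPM, with no overlap between the populations (1.81 ± 0.20). Its neighbour Lyz1, a near-identical gene with which reads may be split, was at 860, 7245, 1020 and 395 CPM against 106, 0, 37.7 and 13 CPM (4.82 ± 0.41). It was detected in 29 of the 83 cells with a median of 2 UMIs, and 1 cell held 326 of its 963 UMIs (33.9%). Hp, which encodes haptoglobin, and F13a1, the coagulation factor XIII A chain, were higher by 2.03 ± 0.50 and 2.03 ± 0.40 on the log2 scale. Fn1 was at 43.0, 0, 36.4 and 11.8 CPM against 45.2, 0, 0 and 0 CPM, so that it was not higher in either unimmunized mouse.

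Of 9 nonclassical monocyte genes, Itgal, Cebpb, Ear2 and Adgre4 were higher. Of 11 macrophage genes, Csf1r, Aif1 and Axl were higher, and Csf1r, the receptor that sustains monocytes and macrophages, was at 258, 574, 346 and 395 CPM against 172, 208, 208 and 189 CPM (0.85 ± 0.25, adjusted p = 0.049, edgeR, and 0.76 without the 2-cell library, adjusted p = 0.073). Of 14 genes of lectins and Fc receptors, Clec12a, Clec4a3, Fcgr3 and Fcer1g were higher, of 5 chemokines Ccl6, Ccl9 and Cxcl16, and of 20 type I interferon response genes Isg15, Ifi209, Ifi211 and Ifi27l2a. Of 4 alternative activation genes Ear2 and Mmp12 were higher, and single rises in other groups were those of Tnfsf13, Vcam1 and Jund. The lectins Mgl2, Clec10a, Clec4b1 and Mrc1, higher against the other Csf1r+ cells, did not pass the test here, which does not show that their levels were alike. Mgl2 was at 349, 125, 222 and 417 CPM and Clec10a at 379, 104, 389 and 319 CPM in the counterparts (0.53 ± 0.27 and -0.46 ± 0.28, adjusted p = 0.455 and 0.633, edgeR), and Clec4b1 and Mrc1 had log2 fold changes of 0.48 ± 0.28 and 0.57 ± 0.34 (adjusted p = 0.599 and 0.63). Besides Lyz1 and Fn1 the largest rises among calls whose average log2 CPM reached 5 were H2-M2 (3.25 ± 0.42, adjusted p = 1.47e-06, edgeR), at 8.6, 0, 39.1 and 0 CPM in the counterparts, the lipoprotein lipase gene Lpl and the autophagy gene Dram1.

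In the other direction, Btla, Bcl11a and Adam23 of 15 conventional dendritic cell genes were lower (median -0.99), as were Tcf4, the transcription factor of plasmacytoid dendritic cells, and Ccr9. Bcl11a, a transcription factor of early dendritic lineages, was at 65.8, 44.2, 85.9 and 41.2 CPM against 401, 665, 306 and 58.7 CPM. Zbtb46 was at 40.5, 0, 33.8 and 5.9 CPM against 86.2, 104, 54.4 and 58.7 CPM and did not pass the test (adjusted p = 0.09, edgeR). Of 14 presentation genes, H2-DMb2 and both subunits of H2-O, the inhibitor of H2-DM (H2-Oa and H2-Ob), were lower, whereas H2-Aa was at 9229, 9276, 9087 and 8160 CPM against 10343, 9909, 9458 and 8468 CPM (adjusted p = 0.831, edgeR).

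Of the genes named as falls, 2 had no UMI and 3 had 1 or 2, so that they cannot be ranked by size. Adam11, a membrane protein of the ADAM family, had 0 UMIs in Cd209a+Flt3- cells and 116 in the counterparts, at least 27.2-fold lower when 3 counts are allowed over the group. The noncoding transcript Gm14161 had 0 against 68 UMIs, at least 15.9-fold lower on the same terms. Cd8a, a coreceptor of T cells that some dendritic cells also carry, had 1 against 192 UMIs, a pooled ratio of 135 (95% exact counting interval 23.9 to 5359). Cyp7b1, an oxysterol-modifying enzyme, had 2 against 61 UMIs. H2-M2 and Adam11 kept their sign under the alternatives in which they could be tested, 17 for H2-M2 and 16 for Adam11, and H2-M2 lost its call under 1 of them. Without the 2-cell library there were 177 calls, 126 of the 129 among them. Leaving out unimmunized mouse 1 gave 42 calls (30 of the 129 among them), unimmunized mouse 2 gave 201, immunized mouse 1 gave 73 and immunized mouse 2 gave 64. DESeq2 called 20 genes and capture 1 and capture 2 alone gave 23 and 37 calls.

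The Cd209 family itself was divided by the Flt3 criterion. Cd209a, used by the rule, was at 599, 265, 536 and 495 CPM in Cd209a+Flt3- cells and at 969, 935, 571 and 535 CPM in the counterparts. Cd209d was at 40.5, 0, 13 and 0 CPM against 1204, 83.1, 357 and 39.1 CPM (-4.48 ± 0.56), in 7 of 83 against 43 of 106 cells. Cd209e had 1 UMI against 95 UMIs, a pooled ratio of 66.8 (11.7 to 2665). Cd209b, a lectin of marginal zone and medullary macrophages, had 23 and 20 UMIs, and Cd209f and Cd209g had none in either population. The lectins of this family are similar in sequence, so that reads may be split among them.

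Cd209a, Cd209d and Cd209e lie on the minus strand of chromosome 8 of GRCm38, at chr8:3743397-3748984, chr8:3871824-3878555 and chr8:3847965-3854309. Their RefSeq promoters (GRCm38.p6, 250 bases before to 50 after the start) were searched on both strands for GGAA followed, after any 2 bases, by GAAA, the composite motif of the myeloid factors PU.1 and IRF, together with those of Cd209b, Cd209c, Cd209f and Cd209g. These 3 of the 7 promoters held 1 match each, against 2.72% of all 32851 promoters of this length. The windows of 30 bases ending in the match are shown, chosen after the matches were seen, with the motif in capitals, here on the other strand, where it reads TTTC, any 2 bases and TTCC.
Cd209a, chr8:3748984-3749013: tgtcattactcacttctcaaTTTCTCTTCC
Cd209d, chr8:3878560-3878589: gcattgtactcagttcctttTTTCTCTTCC
Cd209e, chr8:3854362-3854391: tgctggaactaagttccttgTTTCTCTTCC
The match begins 9, 70 and 85 bases before the RefSeq start in Cd209a, Cd209d and Cd209e. For Cd209d and Cd209e this start differs from the end of the gene interval given above. The 3 genes belong to the same family, so their matches are not independent. The match is a description of letters and says nothing of binding.

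The second neighbour was the 2788 cells of the same criteria with no Cd209a UMI and at least 1 Ly6c2 UMI, here Ly6c2+ counterparts. Genes that go with Ly6c2 or Cd209a in single cells can differ through this choice alone. In Cd209a+Flt3- cells 6 of 13 conventional and 6 of 17 type 2 dendritic cell genes were higher, and 5 of 13 classical monocyte genes were lower, as was 1 conventional dendritic cell gene. Of the 6 type 2 genes, Itgax, Klf4 and Ear2 lost their call without the 2-cell library. Of all 17 type 2 genes, 9 had a fitted fold change above 0 (list median 0.01, against -0.05 for all genes). Of the 13 conventional genes, 9 had one (list median 1.16). Of 6103 genes tested, 132 were called (2.16%), 69 higher (1.13%) and 63 lower (1.03%), with a median log2 fold change of -0.05. Of 13 conventional dendritic cell genes, Zbtb46, Batf3, Dpp4, Cbfa2t3, Bcl11a and Adam23 were higher and Irf8 was lower. Of 13 classical monocyte genes, Hp, Plac8, Ms4a4c, Lyz2 and Gsr were lower and none was higher. Lyz2 was at 18567, 20345, 27530 and 26508 CPM in the Ly6c2+ counterparts, so that its level in Cd209a+Flt3- cells lay between the neighbours in all 4 mice. Among Cd209a+Flt3- cells themselves, Lyz2 was at 18210 CPM with a Ly6c2 UMI and 9675 CPM without. The order of Lyz2 and the lower monocyte genes are therefore given as description.

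Among calls whose average log2 CPM reached 5, H2-M2 had the largest rise, from 5.3, 3.3, 9.3 and 10.1 CPM (4.47 ± 0.29, adjusted p = 1.23e-06, edgeR), followed by Mgl2, Ear2, the cyclin gene Ccnd1 and Clec4b1. The presentation genes H2-DMb2 and H2-Oa were both higher, by 2.54 ± 0.30 and 2.14 ± 0.35 on the log2 scale. The falls named at this level were those of Gzma, Aoah, an enzyme that inactivates bacterial lipopolysaccharide, Nkg7, Ccl5 and Fpr2, a formyl peptide receptor of myeloid cells. Of these, Gzma, Nkg7 and Ccl5 are on the NK cell list, with Gzma at 1044, 492, 115 and 30.8 CPM and Nkg7 at 448, 189, 38.6 and 11.8 CPM in the Ly6c2+ counterparts, whose summed NK cell genes reached 4445, 3269, 785 and 1511 CPM. The part of these transcripts of the NK cell list in the result was not tested. Without the 2-cell library 59 genes were called, all among the 132 (of the genes named here Zbtb46, Batf3, Dpp4, Hp, Ms4a4c, Gsr, Ear2, Nkg7 and Fpr2 lost their call), without unimmunized mouse 1 there were 2 calls and without unimmunized mouse 2 there were 7. With the mouse as a block there were 385 calls (142 higher, 243 lower).

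Cd209a+Flt3- cells differed among themselves. H2-M2 lay in 12 of the 83 cells with a median of 7 UMIs where detected, 35 in the highest cell, and was found in 3 of 106 Flt3+ and 84 of 2788 Ly6c2+ counterparts. Of these 12 cells, 8 had Ear2, 7 had Mmp12, 10 had Mgl2 and 2 had Ly6c2, against 24, 10, 33 and 30 of the 71 cells without H2-M2. The 12 cells were also deeper, with a median of 14291 against 11327 UMIs. Ly6c2 was detected in 32 cells, of which 5 had Zbtb46, against 16 of the 51 cells without it. The pooled level of Lyz2 was 18210 CPM in the 32 cells and 9675 CPM in the 51, and that of Zbtb46 was 14.2 and 43.6 CPM. Mgl2 was at 358 and 427 CPM and so differed less between them.

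With immunization, no gene passed the test within Cd209a+Flt3- cells. Of 8835 genes tested, 0 were called by edgeR (0.0%) and 517 had an unadjusted p under 0.05, 327 of them higher in immunized mice, while DESeq2 called 14 of the 1810 genes to which it gave an adjusted p. With 2 mice a condition and 38 cells on the unimmunized side, simulated 4-fold changes were called in 72% of cases. These were changes of genes with a log2 CPM of at least 5, and lower genes were given none. The values below are thus a description.

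Interferon-gamma induced genes were mostly at higher levels in immunized mice. Of 28 tested, 23 had a fitted fold change above 0, against 53.6% of all genes, and the list median was 1.23 against 0.06. In 18 of the 28, both immunized mice were above both unimmunized mice, against 20.2% of all genes. In 13 of the 18 the 2-cell library held no UMI, as it did for 51.8% of all genes, and against unimmunized mouse 1 alone both immunized mice were higher in 22 of 28, against 29.5% of all genes. The summed CPM of the 29 listed genes was 1950 and 1723 in unimmunized mice 1 and 2 and 3021 and 5067 in immunized mice 1 and 2. In the other Csf1r+ cells it was 3308, 3528, 5064 and 8870 CPM, higher in each mouse.

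Gbp2, a GTPase that attacks intracellular microbes, was at 10.1, 0, 80.7 and 324 CPM (4.31 ± 1.12, adjusted p = 0.648, edgeR). The immunoproteasome subunit Psmb9 was at 182, 88.3, 346 and 707 CPM (1.70 ± 0.43), with both immunized mice above both unimmunized mice. Cxcl10 was at 73.3, 0, 33.8 and 29.5 CPM, whereas in the other Csf1r+ cells it was at 115, 158, 321 and 435 CPM. Its 47 UMIs in Cd209a+Flt3- cells were 29, 0, 13 and 5 per mouse, and a single cell, of unimmunized mouse 1, held 26 of them.

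Genes of alternative activation lay the other way, with a median of -1.07 over 8 genes. Mmp12 was at 187 and 530 CPM in unimmunized and 41.6 and 29.5 CPM in immunized mice (-2.55 ± 0.56, adjusted p = 0.648, edgeR), and the levels of Mrc1, Ear2 and Pdcd1lg2 did not overlap between the conditions either, against 12.9% of all genes lower in both immunized mice. Mgl2 and H2-M2 overlapped between the conditions. Classical monocyte genes had a median of 0.94 over 16 genes, 12 of them with a fitted change above 0. Both immunized mice were above both unimmunized mice in 6 of the 16, against 20.2% of all genes, with Plac8 at 1232, 309, 2935 and 3264 CPM and Hp at 22.8, 44.2, 135 and 136 CPM. Cebpd was lower in both immunized mice, at 88.5, 88.3, 80.7 and 82.5 CPM, and Lyz2 overlapped between the conditions. The cells themselves differed, as 30 of 36 and 1 of 2 cells of unimmunized mice had at least 2 Cd209a UMIs. In immunized mice these were 22 of 33 and 5 of 12 cells. Cells with 1 Cd209a UMI had 478 CPM of Ly6c2 and 18460 CPM of Lyz2. Those with 5 or more had 114 and 9740 CPM. The part of this in the monocyte gene values was not tested. The presentation genes had a median of 0.27, and H2-Aa was at 9229, 9276, 9087 and 8160 CPM.

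**Figure D5:**
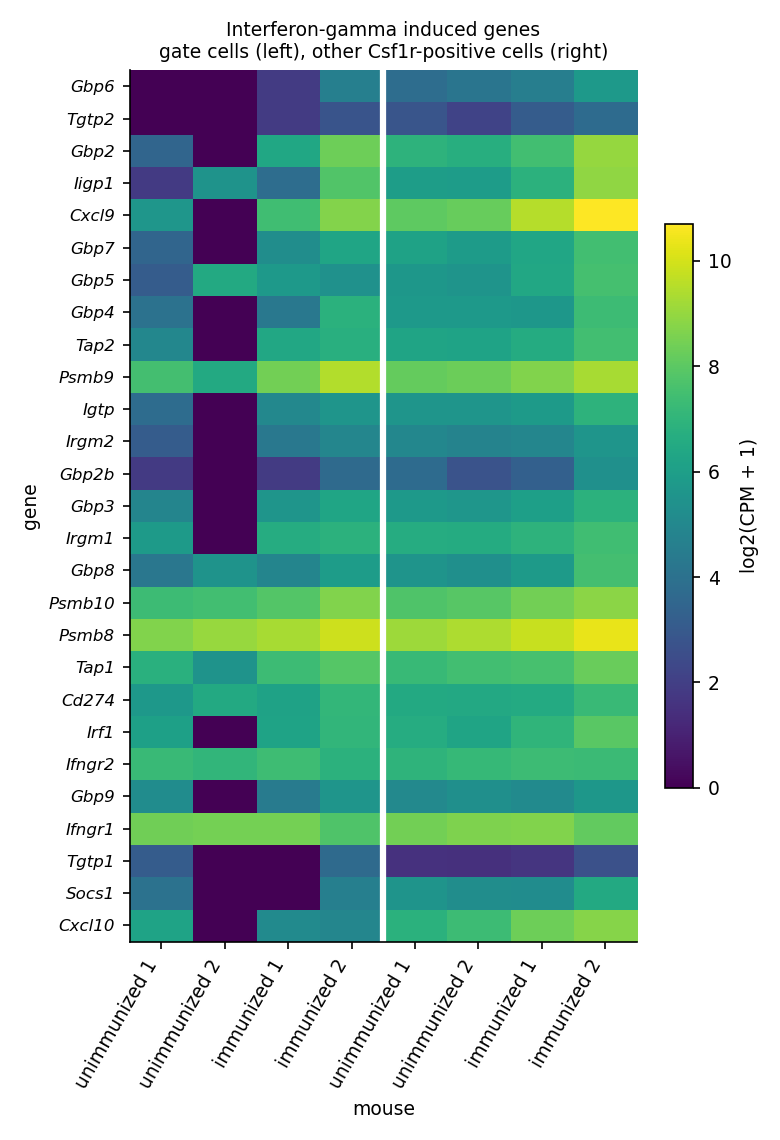
Levels of 27 of the 28 tested interferon-gamma induced genes, log2(CPM + 1) as colour, per mouse (columns) in gate cells (left) and other Csf1r+ cells (right), ordered by fitted change with immunization in gate cells. Immunized mouse 2 is high in both populations, and 0 values are frequent in the 2-cell library of unimmunized mouse 2.

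The test of whether the change with immunization differed between Cd209a+Flt3- and other Csf1r+ cells called 0 of 8834 genes by edgeR (0.0%), with 358 at an unadjusted p under 0.05, and 0 by DESeq2. With the mouse as a block it called 15, 11 of them with a higher change in Cd209a+Flt3- cells. For the antibodies, 2 mice against 2 can give no p under 0.333 by the exact permutation test. On the centred log ratio CD68, F4/80, CD11c, Ly-6c and Ly-6g, 5 of the 6, were at this smallest value, their mice not overlapping between the conditions. On the log2 of the mean count plus 1, F4/80 and CD11c were at it and CD68, Ly-6c and Ly-6g were not. In capture 2 alone the exact permutation test gave p = 0.667 for CD68, CD11c and Ly-6c. CD11c was 0.51 lower in immunized mice while with at least 2 Cd209a UMIs per cell it was 0.34 higher. Ly-6c was 0.63 higher in immunized mice, and 0.017 higher with at least 2 Cd209a UMIs per cell.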

How the data were processed

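The study measured RNA, hashtag and antibody tags in 6 libraries of 2 captures. Per the labels and the methods, the authors counted UMIs with Cell Ranger 4.0.0 on mm10 and CITE-seq-Count, so the deposited values are raw counts per gene, hashtag and antibody. Whether this step equalized the captures in depth was not stated there. Of 18662 barcodes, those above 25% mitochondrial UMIs (1425), without tag data (1238) or with a sequence in both captures (1242, since tags cannot be told apart) were left out, and a mouse needed 80% of hashtag UMIs and at least 10. Scrublet (scanpy 1.11.5) called 0 doublets by its own threshold, so that the highest scores were removed as an alternative.

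Counts were summed per mouse and population and tested with edgeR 4.0.16 (TMM, filterByExpr, adjusted p under 0.05) by population and condition with no block. The study also used edgeR on counts summed by mouse and population, and its design was not stated. The 15 rule genes, and Csf1r or Ly6c2 where they define a comparator, were left out before adjustment. DESeq2 1.42.0 and HTODemux (Seurat 5.3.0) were alternatives. Each test was checked on simulated counts with 200 changed genes, all with a log2 CPM of at least 5. In the comparison with other Csf1r+ cells, a step of 8834 genes, 99% of the 4-fold changes were recovered. There, 21 unchanged genes were called. The members and gene lists were chosen with earlier results of these data known. Genes were named as markers, as members of the lists, or as the 10 (5 for counterparts and the interaction) largest rises and falls among calls whose average log2 CPM reached 5. Genes named in the passages on low counts, cell subsets, Cd209 relatives and immunization beyond these were chosen after their values were seen. Each hashtag is 1 mouse, and the p-values measure the spread between 2 mice a condition. The 2 populations of a mouse come from the same animal. Their deviations correlated at 0.0189 in unimmunized and 0.447 in immunized mice for the other Csf1r+ cells, at -0.0553 and 0.112 for Flt3+ and at 0.119 and 0.514 for Ly6c2+ counterparts. Gene positions are from GENCODE vM21. Some genes are not reported here.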

Additional observations from a re-analysis of the deposited data

Results flagged for a closer look

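Outside the cells analysed, 14 further barcodes met the gene criteria and the mitochondrial limit but had a sequence that occurs in both captures, so that no mouse could be given to them. They held 388 CPM of Cd209a, 104 CPM of Clec10a, 157 CPM of Mgl2, 6195 CPM of Lyz2, 313 CPM of Ly6c2, 63.7 CPM of Zbtb46 and 5.8 CPM of H2-M2, the last from 1 UMI.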

How the results depend on the processing

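The counts against the other Csf1r+ cells, the conditions, the interaction, the Flt3+ and the Ly6c2+ counterparts (58, 0, 0, 129 and 132) moved as follows. With the replicate block of mouse they were 317, not possible (mouse is nested in condition), 15, 188 and 385, the block pairing populations of an animal. DESeq2 called 14 between conditions and 20 against Flt3+ cells. Without a filter on low counts they were 423, 52, 19, 139 and 475. Leaving out each mouse gave ranges of 0 to 264, 0 to 30, 0 to 9, 42 to 201 and 2 to 195. The 2-cell library left out, added after the data were seen, gave 9 and 59 against Csf1r+ and Ly6c2+ cells. At least 2 Cd209a UMIs gave 149 and 289, and HTODemux 107 and 257. A C1q sum of at most 1 gave 35 and cells of at least 5000 UMIs gave 38 against Csf1r+ cells. Capture 1 alone gave 23 against Flt3+ cells. Capture 2 alone gave 23, 37 and 57 against Csf1r+, Flt3+ and Ly6c2+ cells. The causes were not tested, but fewer cells enter most of these.

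Signs turned in few cases. When each mouse was left out, the fitted log2 values against Csf1r+ cells ranged from -5.11 to 1.68 for Alcam, -7.14 to 0.34 for Ciita and -4.07 to 0.83 for Tomato, those against Ly6c2+ cells from -3.20 to 2.96 for Ccnd1 and -6.32 to 0.37 for Ciita, and those between conditions from -1.09 to 0.93 for Clec10a and from -0.525 to 0.20 for the CD169 signal. Without unimmunized mouse 1 the fitted log2 values of Alcam, Ciita and Tomato against Csf1r+ cells were -5.11, -7.14 and -4.07, those of Ccnd1 and Ciita against Ly6c2+ cells -3.20 and -6.32, and without immunized mouse 1 that of Tomato was -4.06. Alcam, Ciita, Tomato and Ccnd1 had 0 UMIs in the 2-cell library, the lone unimmunized one there, and Tomato also in immunized mouse 2. Clec10a with immunization turned to 0.93 without unimmunized mouse 1, 0.29 without immunized mouse 2, 0.21 with at least 2 Cd209a UMIs and 0.48 in capture 2. The interaction of Ciita turned to -0.21 without unimmunized mouse 2, -0.03 without immunized mouse 1, -0.11 without the 2-cell library and -0.09 in capture 1. Between conditions, the CD169 signal turned to 0.05 in capture 2 and 0.20 without unimmunized mouse 1, CD68 to -0.13 in capture 2 and CD11c to 0.342 with at least 2 Cd209a UMIs. The share of kept cells turned to 0.162 percentage points higher in immunized mice without unimmunized mouse 1, the range when each mouse was left out being -0.739 to 0.162. Of 643 values of named genes outside the settings that leave out a mouse, 575 kept sign and side of the threshold and 64 lost the call. Of 200 values with a mouse left out, 126 kept both, 63 lost the call and 10 changed sign.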

Other observations

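Several further gene groups held no call by edgeR against the other Csf1r+ cells. These were the 17 tested genes of the GM-CSF and IL-4 receptor pathway, through which monocytes are turned into dendritic cells in culture (median log2 fold change -0.30, against -0.08 for all genes), the 15 costimulatory and checkpoint ligands (0.08), the 29 genes of the type I interferon response (-0.60), the 15 inflammatory effector genes (-0.73) and the 11 cell cycle genes (0.48). The type I interferon genes Ifit1, Ifit2, Ifit3 and Rsad2 were limited by the rule and entered no count. With immunization, immediate early and heat shock genes had a median of -0.50 over 21 genes, 6 of them lower in both immunized mice than in both unimmunized mice, Fos, Jun, Ier2, Zfp36, Hspd1 and Dnajb1, against 12.9% of all genes. Ier3 and Hsph1 were higher in both immunized mice, and none of the 21 passed the test.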
